A study of Mus musculus with 10 samples.

Results

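Potassium channel genes were taken as every gene of the footprint table whose mouse symbol begins with Kcn, which gave 94 genes of 22373 in 21 subfamilies. Ribosome profiling (Ribo-seq) sequenced ribosome-protected mRNA fragments (RPFs, or footprints), the stretches of mRNA covered by ribosomes. The count of a gene reflects both the amount of its mRNA and the number of ribosomes on it, which are not separated here. The tissue was neocortex of wild-type CD-1 mice at 5 stages running from E12.5 over E14, E15.5 and E17 to P0, with 2 libraries per stage. E stages are embryonic days, P0 is the day of birth, and each library pooled the brains of many animals of both sexes. A replicate is therefore a pool and not an animal, and p-values measure the spread between pools. No group carried a mutation or a treatment, so the comparisons below are between ages only.

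Potassium channels let potassium ions leave or enter a cell along their gradient and thereby set the resting potential, end the action potential and tune firing. The pore-forming families are the voltage-gated channels (Kcna, Kcnb, Kcnc, Kcnd, Kcnh and Kcnq), the channels opened by intracellular calcium or sodium (Kcnma, Kcnn, Kcnt and the related Kcnu), the inward rectifiers (Kcnj) and the two-pore leak channels (Kcnk). Silent subunits (Kcnf, Kcng, Kcns and Kcnv) form no channel of their own and change the behaviour of Kcnb channels, and auxiliary subunits (Kcnab, Kcne, Kcnip and Kcnmb) bind to a pore and change its gating or its transport to the membrane.

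Libraries held between 7544404 counts (P0 replicate 1) and 36129988 counts (E14 replicate 2). The P0 pair differed most, with an SD of the log2 ratio between its libraries of 0.53 over 4559 well-counted genes, against 0.13 to 0.22 at the other stages. The neocortical genes Emx1, Neurod6, Neurod2, Tbr1 and Bcl11b had footprints at every stage but did not move together. Emx1 fell from 54.0 CPM (counts in every 1000000 counts of a library after scaling) at E12.5 to 15.0 CPM at P0, Neurod6 and Neurod2 rose from 119 and 31.6 CPM to 194 and 86.5 CPM, and Tbr1 and Bcl11b, at 87.8 and 42.4 CPM at E12.5 and 88.4 and 50.6 CPM at P0, were not called. Markers of other tissue were also present and moved between stages. The summed level of 10 choroid plexus markers was 313 CPM at E12.5, 1138 CPM at E14 and 13.4 CPM at E15.5, that of 8 red blood cell genes fell from 11207 CPM at E12.5 to 1649 CPM at P0, and that of 10 markers of the ganglionic eminence and its interneurons went from 33.9 CPM at E12.5 to 293 CPM at P0.

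Of the 94 potassium channel genes, 62 reached 32 footprints over the 2 libraries of at least 1 stage and were tested. A gene can pass this filter through the stage at which it is highest, so counts over the 62 describe the tested genes and not the family. Kcnh1, Kcnh3, Kcnj9, Kcnj16, Kcnk3, Kcns1 and Kcns3 reached it at P0 alone, their highest stage. Their rises to P0, counted below, are thus tied to the filter. The 32 others held between 0 and 95 counts over all 10 libraries, with a median of 20. They included Kcnv2 at 0 counts, Kcnq1, the pore of cardiac and epithelial channels, at 23 counts, Kcnc2, a fast voltage-gated pore of interneurons, at 82 counts, Kcnj4, a strong inward rectifier, at 48 counts, and Kcnk12, a silent two-pore relative, at 95 counts. They were left out of the tests below. In a fit without the filter, 8 of the 31 with any count were called higher at P0 than at E12.5, among them Kcnc2 and Kcnj4, and 1 was called lower (Kcna10), against 22.5% and 22.5% of all genes in that fit. Those shares cover 19369 genes, of which 13484 passed the filter, so they are no like-for-like background for genes below it. The shares among all genes below the filter were not taken. A total of 20 genes averaged at least 100 counts per library and are called well counted here. They comprised 6 voltage-gated pores, 9 auxiliary subunits, 2 calcium-activated channels and 1 gene each of the silent subunits, the inward rectifiers and the two-pore channels.

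Footprints on potassium channel genes took a growing share of the total. Summed over the 94 genes, they amounted to 154.3 and 154.4 CPM at E12.5, 215.6 and 211.4 CPM at E14, 240.1 and 227.3 CPM at E15.5, 317 and 312.3 CPM at E17, and 376 and 317.8 CPM at P0. The libraries of neighbouring stages did not overlap up to E17, and P0 replicate 2 lay within 1 CPM of E17 replicate 1. Without Kcne2, a gene described below with the choroid plexus markers, the stage means were 143, 179, 233, 315 and 347 CPM, so the difference between E14 and E15.5 was larger than in the full sum. In bulk tissue, more cells of a type and more RNA or translation per cell cannot be told apart.

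**Figure D1:**
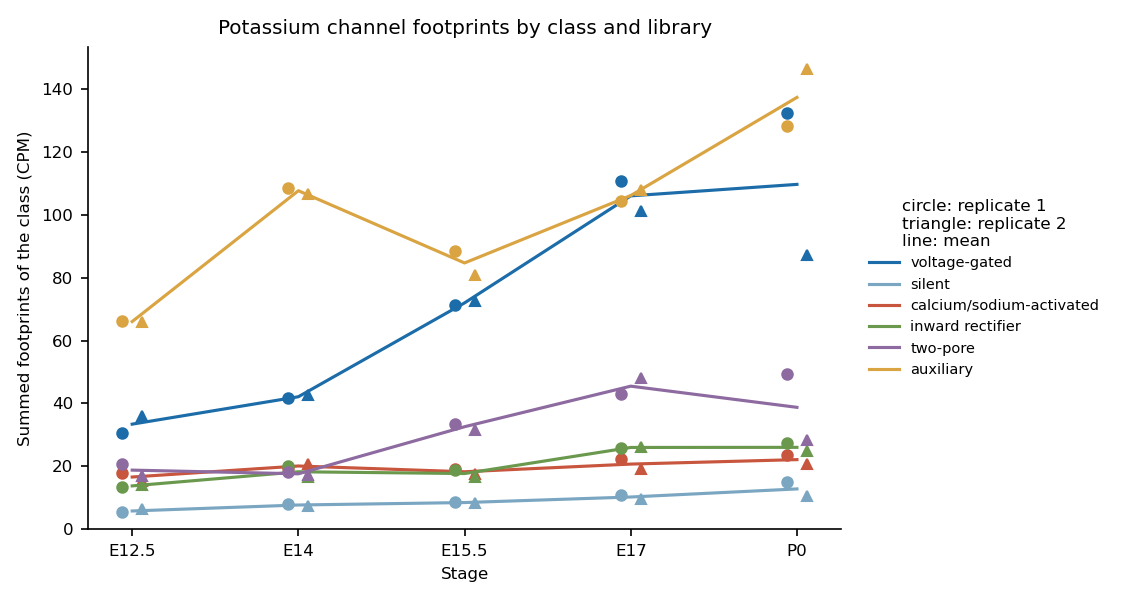
Summed footprints (CPM, vertical axis) of the potassium channel classes in each of the 10 libraries by stage (horizontal axis), with circles for replicate 1, triangles for replicate 2 and lines through stage means. The voltage-gated sum goes from a mean of 33.4 CPM at E12.5 to 110 CPM at P0, while the auxiliary sum has a separate high point of 108 CPM at E14.

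The sums by class took different courses. The voltage-gated sum had stage means of 33.4, 42.1, 72.0, 106 and 110 CPM from E12.5 to P0, and its P0 libraries lay apart at 132 and 87.1 CPM. Two-pore channels stood at 18.8 and 17.6 CPM at the first stages, 32.6 CPM at E15.5, 45.5 CPM at E17 and 38.8 CPM at P0. Inward rectifiers went from 13.8 CPM at E12.5 to 26.0 CPM at E17 and 26.0 CPM at P0, and silent subunits from 5.76 CPM at E12.5 to 12.8 CPM at P0. Calcium- and sodium-activated channels had the narrowest course, between 16.6 and 22.1 CPM. The auxiliary sum was 66.1 CPM at E12.5, 108 CPM at E14, 84.7 CPM at E15.5, 106 CPM at E17 and 137 CPM at P0. The E14 high point was that of Kcne2, and without this gene the auxiliary means were 54.7, 73.2, 84.3, 106 and 137 CPM. These sums are descriptions and were not tested. They are sums of footprints without correction for the length of the genes, so they are read within a class and not between classes.

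Between E12.5 and P0, 39 of the 62 tested genes (62.9%) were called higher at P0 and 6 (9.68%) were called lower, against 30.1% and 32% of all 13484 genes tested. A gene was called at a limma-voom p adjusted by Benjamini-Hochberg under 0.05 with a log2 fold change above 0.32 in size. The median log2 fold change of the 62 was 1.53, and that of all genes was -0.01. Setting the 3 genes without counts at one of these stages to the limit that 3 counts allow left the median at 1.53. Markers of neurons moved over the same interval, with all 7 of 7 called higher and summed levels of 1676 and 1669 CPM at E12.5 against 6652 and 7108 CPM at P0, and markers of neural progenitors fell, with 7 of 7 called lower. Of the other marker lists, 5 of 6 astrocyte, 3 of 4 tested oligodendrocyte and 9 of 10 ganglionic eminence markers were called higher, while 6 of 7 pericyte and endothelial, 6 of 8 tested choroid plexus, 2 of 5 tested microglial and 8 of 8 red blood cell markers were called lower. The part of these cell populations in the potassium channel values was not tested. Of the 45 calls, 23 held in every alternative analysis in which the gene was tested, all of them rises. Among them were Kcna2, Kcna6, Kcnab1, Kcnab2, Kcnc1, Kcnd2, Kcnf1, Kcnip2, Kcnip4, Kcnj2, Kcnj3, Kcnj6, Kcnj12, Kcnj16, Kcnk1, Kcnk9, Kcnma1, Kcnmb2, Kcnmb4, Kcnq5 and Kcnv1. The number called lower rested on the P0 libraries, with 1 left when P0 replicate 2 was omitted, 9 when P0 replicate 1 was omitted and 3 when E12.5 replicate 2 was omitted.

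**Figure D2:**
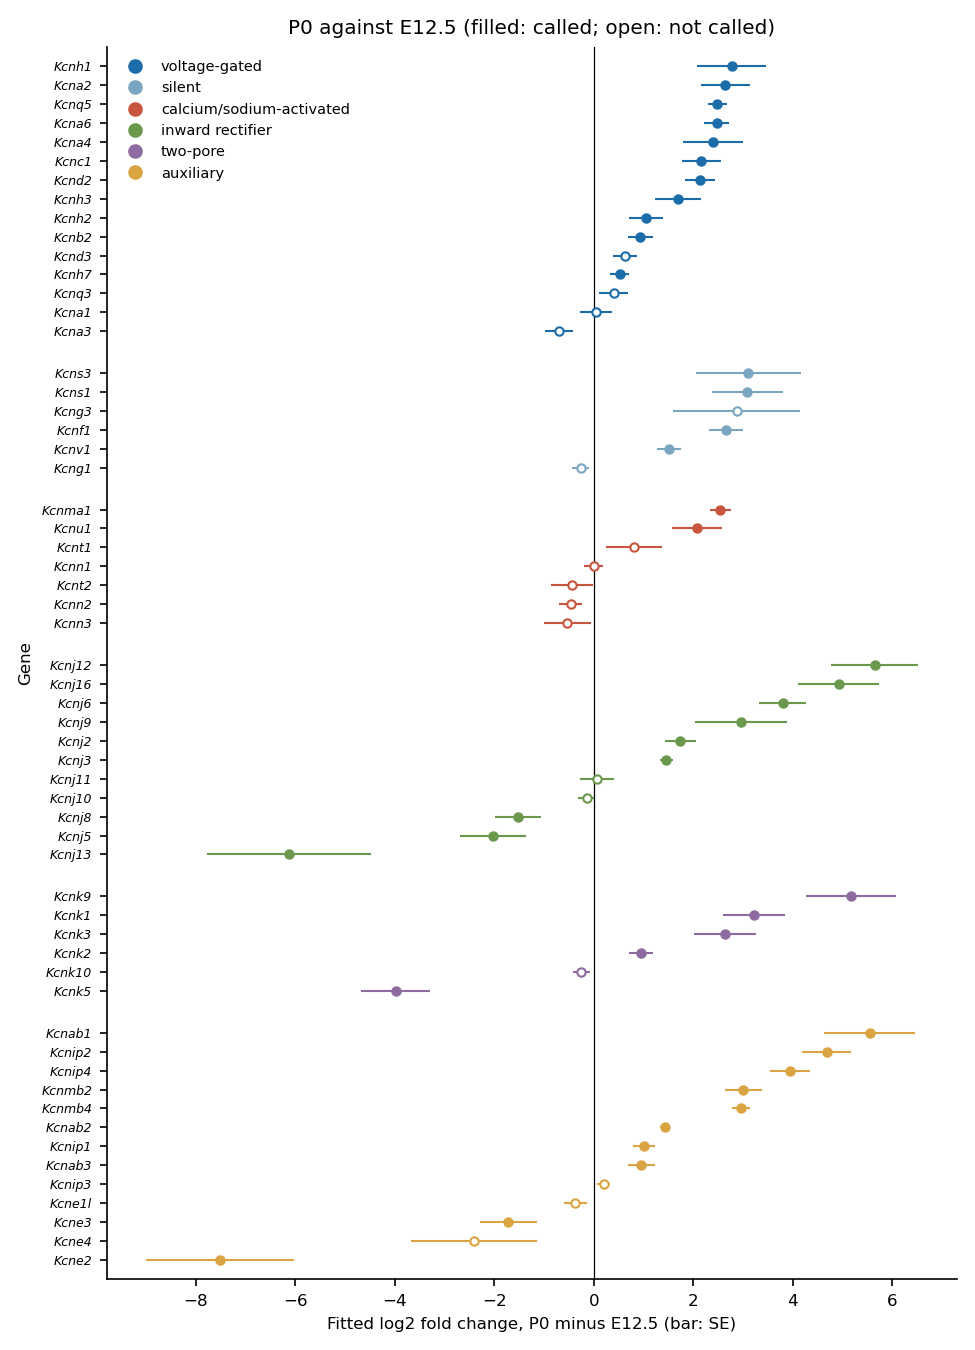
Fitted log2 fold change of P0 minus E12.5 (horizontal axis) with its SE (bars) for 58 of the 62 tested potassium channel genes (vertical axis), coloured by class, with filled points for called genes and open points for the rest. Filled points lie to the right for 35 genes and to the left for 6, and the fitted values of Kcnj12, Kcnj16 and Kcnj13 depend on the prior count because 1 of the stages held no count.

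By class, the P0 against E12.5 calls were 15 higher and 0 lower among 19 tested voltage-gated pores, 4 and 0 among 6 silent subunits, 2 and 0 among 7 calcium- or sodium-activated channels, 6 and 3 among 11 inward rectifiers, 4 and 1 among 6 two-pore channels, and 8 and 2 among 13 auxiliary subunits. Over the 62 tested genes the highest stage mean was at P0 for 29, at E17 for 16, at E15.5 for 2, at E14 for 11 and at E12.5 for 4. The lowest mean was at E12.5 for 36. This tally was not made over all genes, so it describes the 62 only, and the P0 means come from the pair that differed most.

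**Figure D3:**
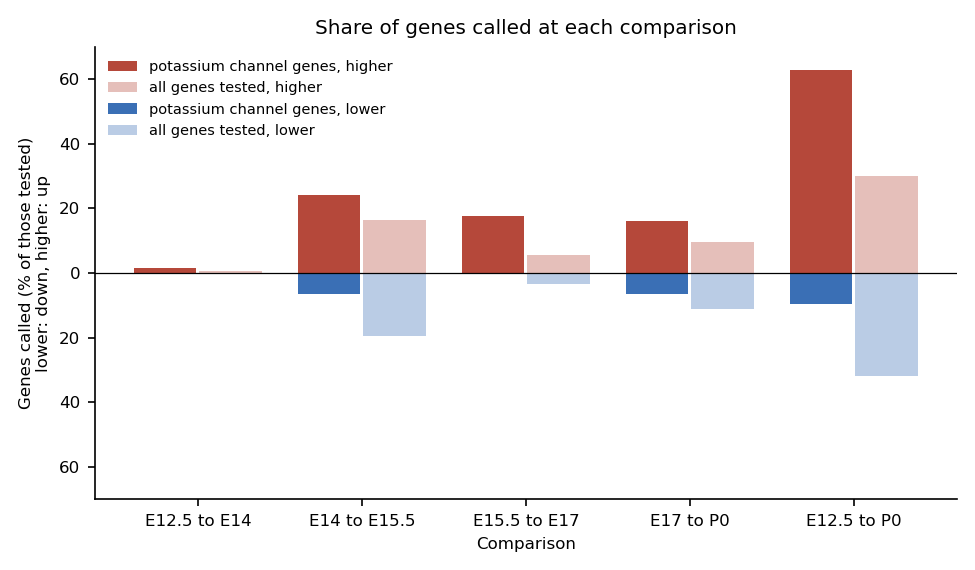
Percent of tested potassium channel genes (dark bars) and of all tested genes (light bars) called higher (upward, red) or lower (downward, blue) in each of the 5 comparisons (horizontal axis). The largest gap is at E12.5 to P0, with 62.9% of potassium channel genes against 30.1% of all genes called higher.

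The steps between stages were unequal. From E12.5 to E14, 1 gene (Kcne2) was called higher and 0 were called lower, against 0.497% and 0.141% of all genes. At an unadjusted p under 0.05, limma-voom gave 10 genes higher and 1 lower in that step, while edgeR and DESeq2 called 0 and 1 gene higher. From E14 to E15.5, 15 genes (24.2%) were called higher and 4 (6.45%) lower, against 16.5% and 19.6% of all genes. From E15.5 to E17, 11 genes (17.7%) were called higher, against 5.61%, and 0 were called lower, against 3.43%. At an unadjusted p under 0.05, 0 genes were lower in that step, and DESeq2 called 1 lower and edgeR 0. From E17 to P0, 10 genes (16.1%) were called higher and 4 (6.45%) lower, against 9.46% and 11.1%. The median log2 fold changes of the 62 in the 4 steps were 0.30, 0.48, 0.55 and -0.02. Over the 5 stages, a moderated F test called 47 of the 62 genes (75.8%), against 63.8% of all genes.

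Several of these counts changed when single libraries were left out. From E12.5 to E14, the number of all genes called fell in every fit without an E12.5, E14, E15.5 or E17 library. It rose in both fits without a P0 library, so the changes in that step were not particular to potassium channel genes. For the other steps, the numbers of all genes called in these fits are not given here. The E12.5 to E14 rise of Kcne2 was not called without any 1 of 7 libraries, namely E12.5 replicate 2 and those of E14, E15.5 and E17, and 5 genes were called higher without either P0 library. The 15 rises from E14 to E15.5 became 9 without either E14 library, 9 and 10 without the first or second E15.5 library, and the 4 falls became 1 when E15.5 replicate 1 was omitted. The 11 rises from E15.5 to E17 became 0 without any 1 library of those stages, with 17 to 21 genes then at an unadjusted p under 0.05. They became 6 without either E14 library, 7 without either E12.5 library and 22 without either P0 library. The 10 rises from E17 to P0 became 2 or 3 when the first or the other E17 library was omitted and 19 when P0 replicate 2 was. The 4 falls of that step became 0 without E17 replicate 1 or P0 replicate 2, 1 without E17 replicate 2 and 10 without P0 replicate 1. Counted by gene, 9 of the 19 calls from E14 to E15.5 held in every alternative analysis, and 0 of the 11 and 0 of the 14 calls in the last 2 steps did. In each fit without a library, the stage left with 1 library was assumed to vary like the others.

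**Figure D4:**
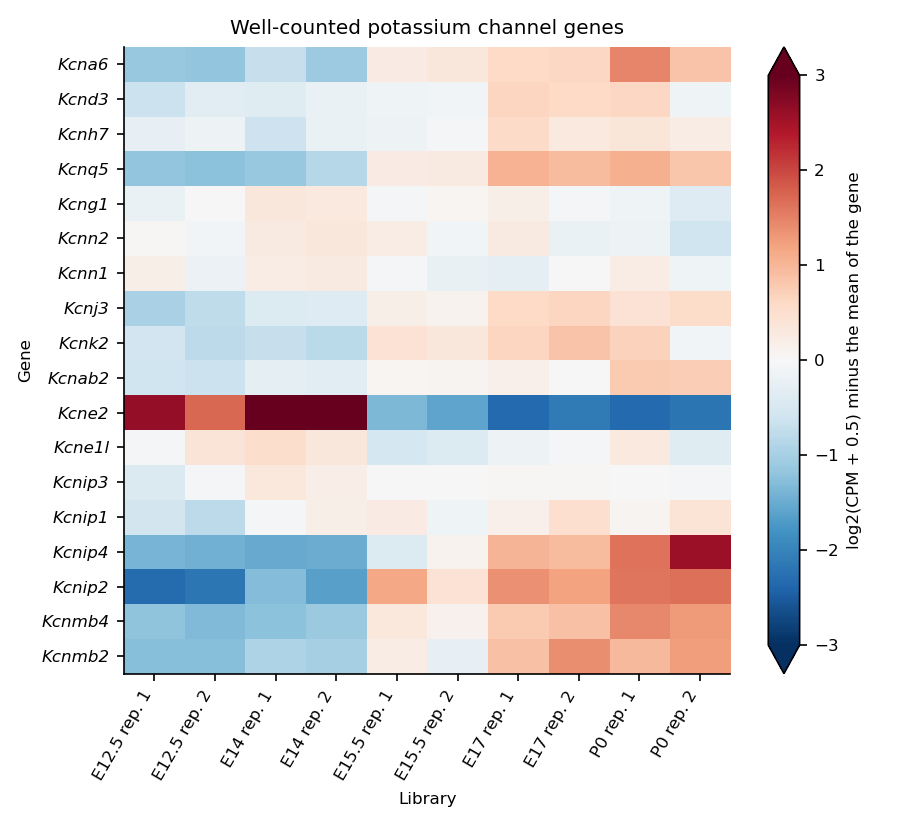
18 of the 20 well-counted potassium channel genes (vertical axis, ordered by class) in the 10 libraries (horizontal axis), as log2(CPM + 0.5) minus the mean of the gene over libraries, red above and blue below that mean. Kcnq5, Kcna6, Kcnip2, Kcnip4, Kcnmb2 and Kcnmb4 turn from blue to red between E14 and E15.5 or E17, Kcne2 turns from red to blue, and Kcnn1, Kcnn2, Kcng1 and Kcnip3 stay pale.

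Among the voltage-gated pores, the Kcnq family carries the M-current, a slowly opening current that restrains repetitive firing. Kcnq5, an M-current subunit of cortex, stood at 1.32 and 1.27 CPM at E12.5, 1.37 and 1.81 CPM at E14, 4.40 and 4.52 CPM at E15.5, 7.97 and 7.47 CPM at E17, and 8.16 and 6.92 CPM at P0. Its libraries rose without overlap at E15.5 (1.46 ± 0.18 on the log2 scale, where the error is the SE of the fit, adjusted p = 0.00053) and again at E17 (0.79 ± 0.14, adjusted p = 0.016), and the P0 and E17 values overlapped.

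Kcnq3, another M-channel subunit, followed another course. It stood at 0.550 and 0.748 CPM at E12.5, 1.15 and 1.17 CPM at E14, 1.96 and 1.65 CPM at E15.5, 1.81 and 1.76 CPM at E17, and 1.20 and 0.835 CPM at P0. It was thus highest at E15.5 and E17, with P0 libraries below both. The rise from E14 to E15.5 was 0.63 ± 0.20 on the log2 scale (adjusted p = 0.039) and the step from E17 to P0 was -0.997 ± 0.22 (adjusted p = 0.016), and P0 against E12.5 was not called (0.40 ± 0.29, adjusted p = 0.26). The E14 to E15.5 call held in 7 of 19 alternatives. The E17 to P0 call was lost in DESeq2, with sample quality weights, in a fit of the 2 stages alone, and without either E17 library or P0 replicate 2.

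**Figure D5:**
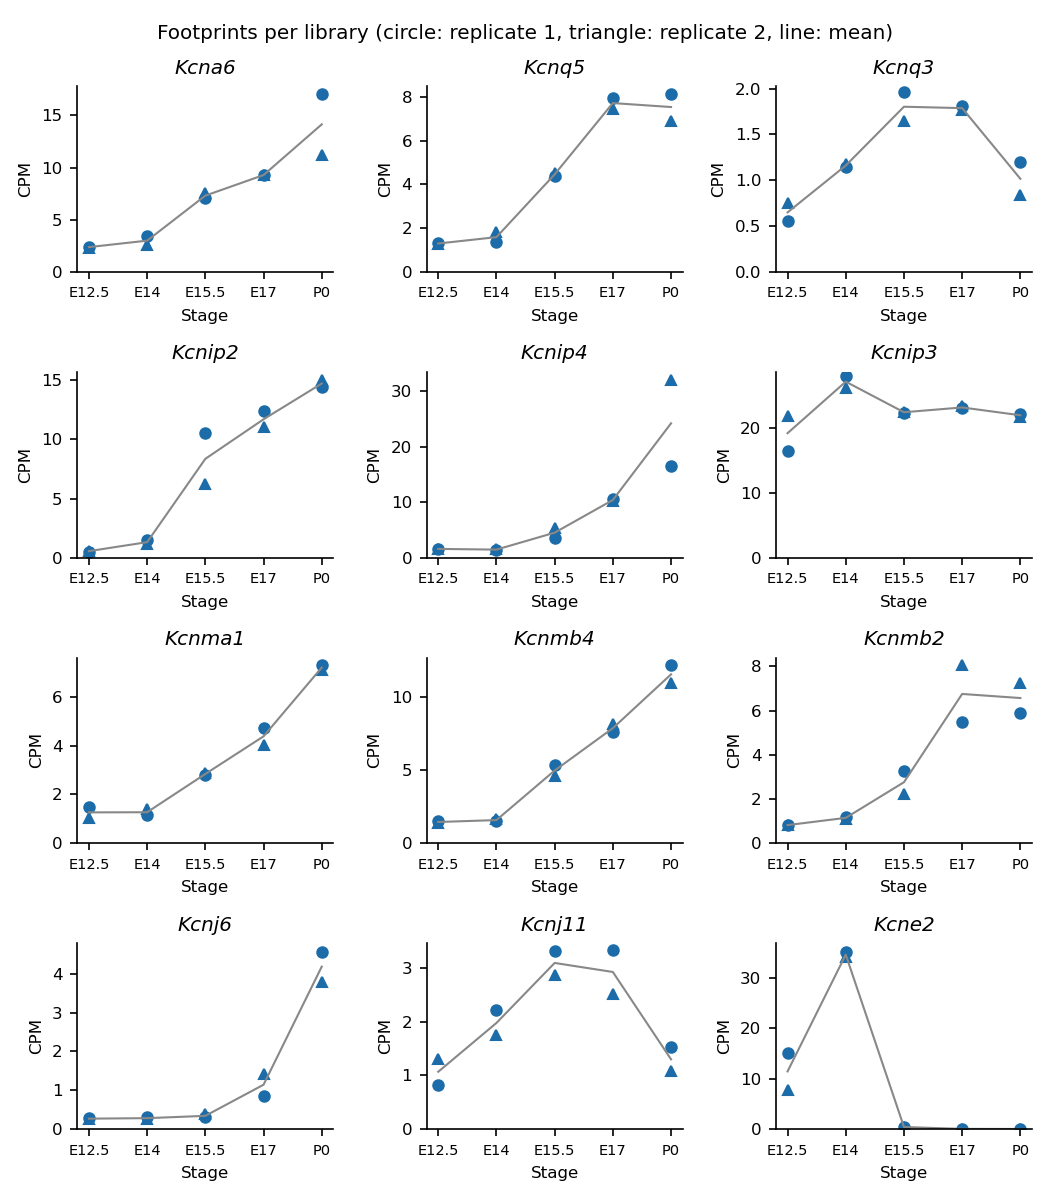
Footprints (CPM, vertical axes, each starting at 0) of 12 potassium channel genes by stage (horizontal axes), with circles for replicate 1, triangles for replicate 2 and grey lines through stage means. Kcnq5 levels off after E17, Kcnq3 and Kcnj11 are lower at P0 than at E17, Kcnma1, Kcnmb4 and Kcnj6 are highest at P0, and Kcne2 is near 0 from E15.5 on.

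The Kcnd genes encode the pores of the fast A-type current of dendrites, and Kcnip, Dpp6 and Dpp10 proteins bind to them. Kcnd2 stood at 0.715 and 0.823 CPM at E12.5, 0.707 and 0.634 CPM at E14, 1.21 and 1.22 CPM at E15.5, 2.38 and 2.25 CPM at E17, and 4.89 and 3.08 CPM at P0. From E14 on, each pair lay above the one before, although no single step was called, and P0 against E12.5 was 2.14 ± 0.30 (adjusted p = 0.00038). Kcnd3 went from 3.58 and 4.60 CPM at E12.5 to 9.37 and 9.09 CPM at E17, with 9.25 and 5.27 CPM at P0. Its P0 libraries lay far apart and its E12.5 to P0 difference of 0.63 ± 0.25 was not called (adjusted p = 0.056). Kcnd1 held 81 counts in all and was not tested in the main fit, and the fit without the filter called it higher at P0 than at E12.5.

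The Kcnip genes, which encode calcium-binding KChIP proteins, differed in which steps were called. Kcnip2 was at 0.495 and 0.598 CPM at E12.5, 1.502 and 1.11 CPM at E14, 10.5 and 6.21 CPM at E15.5, 12.4 and 11.04 CPM at E17, and 14.5 and 15.0 CPM at P0. No library of a later stage fell to the level of an earlier one. The largest step came between E14 and E15.5 (2.68 ± 0.32, adjusted p = 0.00048), and P0 against E12.5 was 4.68 ± 0.49 (adjusted p = 6.8e-05). Kcnip4 went from 1.60 and 1.53 CPM at E12.5 and 1.41 and 1.46 CPM at E14 to 3.62 and 5.36 CPM at E15.5, 10.6 and 10.2 CPM at E17, and 16.4 and 31.95 CPM at P0. It was called higher in each of the last 3 steps, by 1.58 ± 0.42, 1.26 ± 0.31 and 1.22 ± 0.28 (adjusted p = 0.019, 0.043 and 0.019), and its P0 libraries differed by about as much as the P0 step itself. The E15.5 to E17 call held in 9 of 19 alternatives. Kcnip1 went from 6.60 and 5.61 CPM at E12.5 to 10.6 and 13.3 CPM at P0 (1.01 ± 0.22, adjusted p = 0.0036). Kcnip3, also known as a calcium-regulated transcriptional repressor, was between 16.6 and 28.2 CPM in all 10 libraries and was called in no comparison, with 0.20 ± 0.14 from E12.5 to P0 (adjusted p = 0.24). For the membrane partners, Dpp6 rose by 2.72 (adjusted p = 2.6e-05) and Dpp10 by 3.56 (adjusted p = 0.00016) on the log2 scale over the same interval.

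Kcna pores form low-threshold channels of axons, and Kcnab proteins are their cytoplasmic beta subunits. Kcna6 stood at 2.42 and 2.32 CPM at E12.5, 3.45 and 2.54 CPM at E14, 7.05 and 7.56 CPM at E15.5, 9.24 and 9.31 CPM at E17, and 17.1 and 11.2 CPM at P0. Stages after E14 followed each other without overlap, with a called step between E14 and E15.5 (1.32 ± 0.23, adjusted p = 0.003), and P0 against E12.5 was 2.47 ± 0.25 (adjusted p = 5.4e-05). Kcna2 (2.65 ± 0.49, adjusted p = 0.0017) and Kcna4 (2.40 ± 0.60, adjusted p = 0.0081) were also called higher at P0, from 14 and 5 counts over the E12.5 pair. Kcna1 was not called: it held 26 counts at E12.5 and 30 at P0, and its difference of 0.05 ± 0.32 (adjusted p = 0.9) had the opposite sign in edgeR and DESeq2. Kcna3 gave -0.71 ± 0.28 (adjusted p = 0.056).

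All 3 Kcnab genes were called higher in the E14 to E15.5 step and again between E12.5 and P0, where 16.5% and 30.1% of all genes were. Kcnab2 stood at 11.9 and 11.4 CPM at E12.5, 15.2 and 14.3 CPM at E14, 19.1 and 19.2 CPM at E15.5, 20.5 and 18.2 CPM at E17, and 31.9 and 31.0 CPM at P0. Its P0 libraries stood clear of every other library, and the step from E17 to P0 was 0.70 ± 0.10 (adjusted p = 0.0035). Kcnab1 rose from 5 counts over the E12.5 pair to 328 over the P0 pair, a ratio at equal depth of 57.7 with a 95% exact interval for counting error of 24.5 to 179. Its step was from E14 (0.574 and 0.285 CPM) to E15.5 (2.86 and 3.04 CPM), at 2.90 ± 0.49 (adjusted p = 0.0027). Kcnab3 gave 0.96 ± 0.27 from E12.5 to P0 (adjusted p = 0.014), a call that held in 13 of 18 alternatives and was lost without either E12.5 library, and its E14 to E15.5 call held in 5 of 18. Kcnab2 overlaps Nphp4 in the RefSeq annotation, as Kcnip1 does Kcnmb1, Kcnb2 a predicted gene, Kcnh3 Mcrs1 and Kcnh7 Gca.

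Of the partners known to sit with Kcna channels on axons, Lgi1 rose by 2.97 (adjusted p = 1.8e-05) and Adam22 by 1.30 (adjusted p = 0.0027) from E12.5 to P0 on the log2 scale, while Cntnap2, which clusters these channels beside nodes of Ranvier, fell by 1.92 (adjusted p = 8.3e-05), from 122 to 32.1 CPM. Ank3, the anchor of M-channels at the axon initial segment, rose from 57.3 to 220 CPM (1.94, adjusted p = 1.3e-06).

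The remaining voltage-gated pores were counted at lower levels. Kcnb2, a delayed rectifier, rose from E12.5 to P0 by 0.94 ± 0.25 (adjusted p = 0.011). That call held in 13 of 18 alternatives. It was lost in DESeq2, with sample quality weights, in a fit of the 2 stages alone, and without E12.5 replicate 2 or P0 replicate 2. Of the Kcnb partners none was called: Vapa and Vapb gave 0.16 and 0.04 (adjusted p = 0.52 and 0.86) and Amigo1 gave -0.31 (adjusted p = 0.2). Kcnc1, a pore of rapidly firing neurons, went from 0.605 and 0.673 CPM at E12.5 to 4.68 and 2.51 CPM at P0 (2.16 ± 0.39, adjusted p = 0.0015).

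Within the Kcnh family, 4 of 4 tested genes, of 8 members, were called higher at P0 than at E12.5, against 30.1% of all genes. Of these, Kcnh1 and Kcnh3 reached the filter at P0 alone. Kcnh1, which encodes the EAG channel, had 4, 3, 3, 12 and 38 counts over the pairs of libraries from the first stage to the last. It was the only voltage-gated gene called higher from E17 to P0 (1.79 ± 0.48, adjusted p = 0.033). That call was lost in edgeR and DESeq2, with quality weights, without filtering and in a fit of the 2 stages alone. It was also lost without any 1 of the E12.5 or E17 libraries. Kcnh2 and Kcnh7, both of the ERG group, gave 1.05 ± 0.34 and 0.52 ± 0.20 from E12.5 to P0 (adjusted p = 0.026 and 0.048), and Kcnh3 gave 1.69 ± 0.46 (adjusted p = 0.011). Kcnh7 was called in 6 of 19 alternatives and Kcnh2 in 13 of 18, with its call lost without either E12.5 library.

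Silent subunits were sparse except for Kcng1 and Kcnv1. Kcng1 stayed between 2.98 and 5.26 CPM in all libraries and was not called in any comparison. Kcnv1 rose from 1.32 and 1.53 CPM at E12.5 to 5.55 and 3.70 CPM at P0 (1.52 ± 0.24, adjusted p = 0.00077) without a called step. Kcnf1 held 13 counts at E12.5 and 99 at P0, and it was called higher from E15.5 to E17 (1.27 ± 0.25, adjusted p = 0.024) and from E17 to P0 (0.73 ± 0.18, adjusted p = 0.025). Kcns1 had 3 counts at E12.5 and 35 at P0, a ratio at equal depth of 10.3 with an interval of 3.23 to 52.1, and Kcns3 had 4 and 36. Both genes reached the filter at P0 alone.

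The BK channel, opened by calcium and depolarisation together, is built from the Kcnma1 pore and Kcnmb subunits. Kcnma1 stood at 1.49 and 1.05 CPM at E12.5, 1.15 and 1.39 CPM at E14, 2.80 and 2.87 CPM at E15.5, 4.73 and 4.02 CPM at E17, and 7.29 and 7.09 CPM at P0. E12.5 and E14 overlapped, and after that each stage lay above the one before. Its 3 later steps were 1.13 ± 0.20, 0.62 ± 0.16 and 0.71 ± 0.15 (adjusted p = 0.0034, 0.049 and 0.014), with 2.55 ± 0.21 from E12.5 to P0 (adjusted p = 1.7e-05). The E15.5 to E17 call held in 7 of 19 alternatives and was lost in edgeR and DESeq2. Kcnmb4, the neuronal beta subunit, had nearly the same outline, with 1.54 and 1.38 CPM at E12.5, 1.502 and 1.68 CPM at E14, 5.36 and 4.60 CPM at E15.5, 7.62 and 8.15 CPM at E17, and 12.2 and 10.95 CPM at P0. It was called in the same 3 steps, by 1.63 ± 0.17, 0.65 ± 0.13 and 0.53 ± 0.12 (adjusted p = 0.00025, 0.022 and 0.019). Kcnmb2, an inactivating beta subunit, went from 0.825 and 0.823 CPM at E12.5 to 3.28 and 2.24 CPM at E15.5, 5.46 and 8.03 CPM at E17, and 5.87 and 7.25 CPM at P0. It was called at E14 to E15.5 (1.26 ± 0.32, adjusted p = 0.016) and at E15.5 to E17 (2.37-fold, adjusted p = 0.02), and its P0 libraries lay within the E17 range. Kcnmb1 and Kcnmb3 held 9 and 2 counts in all.

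The small-conductance calcium-activated channels, which shape the pause after a spike, were not called. Kcnn1 was between 4.51 and 6.91 CPM and Kcnn2 between 4.63 and 9.44 CPM in the 10 libraries. None of the 5 comparisons was called for either, with 0.00 ± 0.19 for Kcnn1, whose sign changed between fits, and -0.47 ± 0.22 for Kcnn2 from E12.5 to P0 (adjusted p = 0.99 and 0.1). Kcnn3 was not called either (-0.53 ± 0.47, adjusted p = 0.35). The sodium-activated Kcnt1 and Kcnt2 gave 0.80 ± 0.56 and -0.43 ± 0.42 (adjusted p = 0.24 and 0.4). Kcnu1, known from sperm, rose from 16 counts at E12.5 to 82 at P0 (2.08 ± 0.50, adjusted p = 0.0067), with P0 libraries at 0.761 and 1.79 CPM, and the call was lost without E12.5 replicate 2 or P0 replicate 2.

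Inward rectifiers moved at different steps. Kcnj3, a subunit of the G-protein-gated channels that transmitters open, stood at 3.795 and 4.53 CPM at E12.5, 5.92 and 6.02 CPM at E14, 9.13 and 8.57 CPM at E15.5, 12.4 and 12.7 CPM at E17, and 10.9 and 11.96 CPM at P0. Its libraries lay higher at each stage up to E17 without overlap, and it was called at E14 to E15.5 (0.57 ± 0.12, adjusted p = 0.0072) and at E15.5 to E17 (0.50 ± 0.11, adjusted p = 0.033). Kcnj6, a second subunit of these channels, was at 0.254 to 0.380 CPM up to E15.5, at 0.857 and 1.43 CPM at E17 and at 4.57 and 3.79 CPM at P0. It thus came late, with 1.66 ± 0.41 from E15.5 to E17 (adjusted p = 0.042) and 1.87 ± 0.23 from E17 to P0 (adjusted p = 0.0023). The E15.5 to E17 calls of Kcnj3 and Kcnj6 each held in 10 of 19 alternatives, and that of Kcnj3 was lost in DESeq2. Kcnj9 went from 4 to 32 counts between E12.5 and P0 (2.96 ± 0.93, adjusted p = 0.022), and it reached the filter at P0 alone. Kcnj5, best known from heart, went the other way, from 1.27 and 1.16 CPM at E12.5 to 0.109 and 0.334 CPM at P0 (-2.03 ± 0.67, adjusted p = 0.027), and this call was lost without either E12.5 library or P0 replicate 2, with quality weights, and with library totals in place of TMM scaling.

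The strong rectifiers Kcnj2 and Kcnj12, which hold cells near the potassium equilibrium potential, were both called higher at E17 than at E15.5. Kcnj2 was at 0.486 to 1.10 CPM in the 6 libraries up to E15.5, at 2.79 and 2.85 CPM at E17, and at 2.39 and 2.27 CPM at P0. The step from E15.5 to E17 was 1.78 ± 0.26 (adjusted p = 0.011). Kcnj12 held 0, 4, 13, 56 and 57 counts over the 5 pairs in order of age, so P0 was at least 16.7-fold higher than E12.5 when 3 counts over the pair are taken as the floor. Its E15.5 to E17 step was 1.97 ± 0.41 (adjusted p = 0.026).

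Kcnj11 and Kcnj8 encode the pores of ATP-sensitive channels, with Abcc8 and Abcc9 as their regulatory subunits. Kcnj11 stood at 0.825 and 1.31 CPM at E12.5, 2.21 and 1.74 CPM at E14, 3.31 and 2.87 CPM at E15.5, 3.33 and 2.52 CPM at E17, and 1.52 and 1.07 CPM at P0. Its E15.5 and E17 libraries lay above all others. The step from E14 to E15.5 was called over all stages (0.68 ± 0.23, adjusted p = 0.05) and in 5 of 19 alternatives, and the step from E17 to P0 was -1.34 ± 0.27 (adjusted p = 0.012). Abcc8 had the same outline, with a called rise between E14 and E15.5 (0.79, adjusted p = 0.03) and a called fall from E17 to P0 (-1.26, adjusted p = 0.015). The E17 to P0 call of Kcnj11 was lost with sample quality weights, in a fit of the 2 stages alone, and without E17 replicate 1 or P0 replicate 2. Kcnj8, the pericyte and smooth muscle form, had 2.29 and 2.52 CPM at E17 and 2.07 and 0.573 CPM at P0 (-1.72 ± 0.44, adjusted p = 0.029), and Abcc9 fell in the same step (-1.74, adjusted p = 0.017). The Kcnj8 call held in 9 of 19 alternatives. The fall of Kcnj8 rested on P0 replicate 2: without it, P0 against E12.5 was 0.0145 on the log2 scale instead of -1.52 ± 0.47 (adjusted p = 0.02). Over E17 to P0, 5 of 7 pericyte and endothelial markers were called lower, and their summed level was 74.6 and 84.9 CPM at E17 and 74.1 and 53.7 CPM at P0. Their part in the Kcnj8 values was not tested.

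Kcnj10 and Kcnj16 form the channel by which glia take up potassium. Kcnj10 was between 1.96 and 2.92 CPM in all libraries and was not called in any comparison (E12.5 to P0, -0.14 ± 0.17, adjusted p = 0.5). Kcnj16 had at most 1 count per stage up to E17, with 0 at E12.5, and 34 counts at P0, at least 9.96-fold higher at P0 than at E12.5. Both P0 libraries held it, with 5 and 29 counts, and it reached the filter at P0 alone. Glial markers moved over the E17 to P0 step, with 3 of 6 astrocyte markers called higher and Gfap going from 0.881 to 11.4 CPM and Aqp4 from 0.280 to 2.11 CPM. Of the 6, 4 had a fitted change above 0. Gja1 went from 2.83 to 1.91 CPM and Slc1a3 was level at 45.0 CPM, neither of them called. The summed astrocyte level was 82.9 to 87.5 CPM at E17 and 108 to 122 CPM at P0. Of the oligodendrocyte markers, 2 of 4 tested were called higher, and their sum was 23.3 to 29.8 CPM at E17 and 49.1 to 79.9 CPM at P0. Their part in the Kcnj16 values was not tested.

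Kcnj13 and Kcne2 moved with the choroid plexus markers. Both encode parts of channels known from choroid plexus epithelium, the tissue that secretes cerebrospinal fluid. Kcne2 stood at 15.1 and 7.78 CPM at E12.5, 35.1 and 34.1 CPM at E14, 0.482 and 0.338 CPM at E15.5, 0 and 0.0751 CPM at E17, and 0 and 0.0477 CPM at P0. It took 16.3% and 16.1% of all potassium channel footprints in the E14 libraries, the largest share of any gene there, and counted 1869 at E14 against 24 at E15.5. The change was 1.70 ± 0.25 from E12.5 to E14 (adjusted p = 0.038) and -6.31 ± 0.60 from E14 to E15.5 (adjusted p = 0.00019). Kcnj13 had 2.15 and 1.46 CPM at E12.5, 3.40 and 2.03 CPM at E14, 0.271 and 0 CPM at E15.5, 0.0635 and 0 CPM at E17, and 0 counts at P0, which is at least 29.6-fold lower than E12.5. Its E14 to E15.5 step was -4.79 ± 1.22 (adjusted p = 0.016), a call that was lost without E15.5 replicate 1.

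Of the 10 choroid plexus markers, which did not include these genes, 8 were tested, and all 8 were called lower from E14 to E15.5. Ttr, the most abundant, was at 1081 CPM at E14 and 11.2 CPM at E15.5, and Slc4a5 was at 0.699 CPM and 0. The untested markers Prlr and Kl were near the floor at both stages and show no fall. Prlr was at 0.0158 CPM at E14 and 0 at E15.5, and Kl at 0.108 and 0.109 CPM. The summed level was 1133 and 1143 CPM at E14, 14.7 and 12.03 CPM at E15.5 and 17.8 and 12.1 CPM at P0. The part of choroid plexus tissue in the values of Kcne2 and Kcnj13 was not tested. Kcnj13 lies inside the gene Gigyf2 in the RefSeq annotation, and whether the counting used strand is not stated, so reads on shared stretches cannot be told apart.

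Other Kcne genes took different courses. Kcne3 went from 163 counts at E12.5 to 59 at P0 (-1.72 ± 0.58, adjusted p = 0.03). That call was lost without E12.5 replicate 2 or P0 replicate 2, with sample quality weights, and with library totals in place of TMM scaling. Kcne1l, another well-counted member, stood at 10.4 and 9.001 CPM at E14 and 4.73 and 5.19 CPM at E15.5. That step was called (-0.96 ± 0.22, adjusted p = 0.011), the values at P0 were 8.70 and 5.35 CPM, and P0 against E12.5 was not called (-0.37 ± 0.23, adjusted p = 0.19). Kcne4 gave -2.41 ± 1.26 (adjusted p = 0.13).

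Among two-pore channels, which carry the leak current, Kcnk2 (TREK-1) dominated the counts. It stood at 12.9 and 10.995 CPM at E12.5, 11.8 and 10.9 CPM at E14, 26.2 and 24.7 CPM at E15.5, 30.4 and 35.4 CPM at E17, and 31.5 and 18.2 CPM at P0. The first 4 libraries lay close together and all later ones above them, with a single called step from E14 to E15.5 (1.17 ± 0.23, adjusted p = 0.005). Its relative Kcnk10 (TREK-2) stayed between 2.48 and 4.51 CPM and was called lower from E17 to P0 (-0.72 ± 0.16, adjusted p = 0.017). That call was lost in DESeq2, with sample quality weights, in a fit of the 2 stages alone, and without either E17 library or P0 replicate 2.

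The acid-sensitive Kcnk3 and Kcnk9 and the weakly rectifying Kcnk1 were called higher at P0 than at E12.5. Kcnk9 held 1 count at E12.5 and 70 at P0, a ratio at equal depth of 61.5 with an interval of 10.7 to 2465, and was called higher from E17 to P0 (1.04 ± 0.27, adjusted p = 0.03). That step was called in 7 of 18 alternatives and not in edgeR or DESeq2. Kcnk3 went from 5 to 43 counts (2.64 ± 0.63, adjusted p = 0.0064), and it reached the filter at P0 alone. Kcnk1 went from 1.27 and 0.374 CPM at E12.5 to 10.1 and 4.41 CPM at P0 (3.21 ± 0.62, adjusted p = 0.0021), with P0 libraries on either side of the E17 pair at 5.91 and 6.38 CPM. Kcnk5 (TASK-2), known from epithelia, fell from 2.59 and 1.83 CPM at E12.5 to 1.10 and 1.20 CPM at E14, 0.301 and 0.422 CPM at E15.5, 0.286 and 0.225 CPM at E17, and 0 and 0.167 CPM at P0. The E14 libraries already lay below those of E12.5 (-0.86 ± 0.24, adjusted p = 0.13), and among single steps that from E14 to E15.5 was called (-1.70 ± 0.38, adjusted p = 0.0092).

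Of 25 genes for channel partners and for the pumps that build the potassium gradient, 22 were tested. From E12.5 to P0, 13 of the 22 were called higher and 4 lower, among them Abcc9, Cntnap2 and Atp1b3, against the 30.1% and 32% of all genes given above. Beta subunits of the sodium-potassium pump went both ways. Atp1b1 rose from 7.25 to 64.6 CPM (3.36 on the log2 scale, adjusted p = 4.8e-05), and Atp1b3 went from 35.8 to 10.1 CPM (-1.87, adjusted p = 2.8e-05). Hcn2, Hcn3 and Hcn4, whose channels open on hyperpolarisation and pass potassium and sodium, were called higher at P0, by 2.67, 1.49 and 1.71 on the log2 scale (adjusted p = 0.0026, 0.005 and 0.0079).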

How the data were processed

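The authors deposited whole-number footprint counts per gene, 1 column per library, and all 10 columns were used. Per the study's methods, adapters and duplicate reads were removed, Bowtie 2 served to filter out structural RNA, and STAR (version 2.7.0 in the submitters' processing notes) aligned the remainder to GENCODE M12 with multi-mapping reads kept. Whether the table comes from the isoform estimates the methods also name, how reads shared by similar genes were split, and whether strand was used are not given in the sources used here. Symbols were matched for 22274 of 22373 identifiers. No coding lengths were available in the reference tables used, so levels were not compared between genes, and the planned choice of the highest gene per length in each subfamily was not applied.

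Genes with at least 32 footprints over the 2 libraries of at least 1 stage were kept (13484 genes). The filter and voom follow the study's methods, which name no TMM scaling. Counts were TMM-scaled (edgeR 4.0.16) and fitted with limma-voom (limma 3.58.1, R 4.3.3), with 1 coefficient per stage over all 10 libraries and two-sided moderated tests adjusted by Benjamini-Hochberg over all genes kept. Calls needed an adjusted p under 0.05 and a log2 fold change above 0.32 in size. The 5 comparisons share stages. CPM are counts in every 1000000 of the TMM-scaled library size of tested genes, in which 1 count was worth 0.0239 to 0.109 CPM, and ± is the SE of the fit. Ratios of low counts carry exact binomial 95% intervals, and intervals and floors of 3 counts cover counting error only. The scripts were tested on simulated counts.

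The genes and lists were chosen with earlier results of these data known. The naming rule took, among called well-counted genes, the 8 largest rises and falls from E12.5 to P0 and from E14 to E15.5 and 3 in the other steps, plus 16 genes listed by name. Genes named beyond it were chosen after their values were seen. Alternatives were library totals or DESeq2 size factors in place of TMM, edgeR's quasi-likelihood test, DESeq2 1.42.0, sample quality weights, no filter, a filter at 100 footprints, a replicate block and leaving out each library. A fit of the 2 stages compared only was added after seeing the data. Some genes are counted in the totals but not reported by name here.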

Additional observations from a re-analysis of the deposited data

How the results depend on the processing

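Leaving out 1 library at a time gave 0 to 5 potassium channel genes called higher from E12.5 to E14, 9 to 22 higher and 1 to 5 lower from E14 to E15.5, 0 to 22 higher from E15.5 to E17, 2 to 19 higher and 0 to 10 lower from E17 to P0, 28 to 39 higher and 1 to 9 lower from E12.5 to P0, and 34 to 50 by the F test. Falls numbered 0 to 0 from E12.5 to E14 and from E15.5 to E17.

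From E12.5 to E14, edgeR, no filter, the replicate block and the 2 stages alone each gave 0 higher (14, 12, 11 and 12 at an unadjusted p under 0.05), and quality weights gave 3. All genes called higher in that step numbered 67 in the main fit. They numbered 73, 22, 2, 4 and 402 in these fits, in the same order. From E14 to E15.5, library totals gave 24 higher, quality weights 23 higher and 8 lower, and the 2 stages alone 23 higher. Of all genes, library totals called 32.7% higher in that step, against 16.5% with TMM. From E15.5 to E17, DESeq2 gave 5 higher and 1 lower, quality weights 26 higher, no filter 7, the replicate block 7, and the 2 stages alone 24 higher and 1 lower. From E17 to P0, edgeR gave 6 higher, DESeq2 3 higher and 1 lower, quality weights 3 higher and 0 lower (limma-voom, 2 lower at an unadjusted p under 0.05), a filter at 100 footprints 6 higher, and the 2 stages alone 0 higher and 0 lower (limma-voom, 10 and 5 at an unadjusted p under 0.05). From E12.5 to P0, library totals gave 3 lower, quality weights 0 lower (1 at an unadjusted p under 0.05), and the filter at 100 footprints, which leaves 37 of the 62 genes, 22 higher and 31 by the F test. Library totals called 18.6% of all genes lower from E12.5 to P0, against 32% with TMM. For the other fits, the numbers of all genes called are not given here. The cause of the other changes was not tested.

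With library totals the median log2 fold change of all genes moved to 0.29 from E14 to E15.5 and to 0.51 from E12.5 to P0, and that of the potassium channel genes to 0.78 and 2.05. All genes called higher were then 72.7% and 72% of calls instead of 45.6% and 48.5%. Library totals, which move all genes up, turned the sign of 6 uncalled negative differences and of Kcnn1 from E12.5 to P0, to 0.38 for Kcnj10, 0.0978 for Kcnt2, 0.14 for Kcne1l, 0.25 for Kcng1, 0.27 for Kcnk10, 0.0551 for Kcnn2 and 0.52 for Kcnn1. Kcnn1, at nearly 0, also turned positive with DESeq2 size factors (0.0161), edgeR (0.0232), DESeq2 (0.0513), quality weights (0.0556), the replicate block (0.0103) and the 2 stages alone (0.0247), and Kcna1 turned negative in edgeR (-0.0342) and DESeq2 (-0.0188). Leaving out single libraries turned signs for Kcna1 (-0.291 to 0.265), Kcne1l (-0.613 to 0.0965), Kcnj10 (-0.251 to 0.0138), Kcnj11 (-0.183 to 0.499), Kcnk10 (-0.342 to 0.0215) and Kcnn1 (-0.203 to 0.268), all uncalled, and for the called fall of Kcnj8 (-1.85 to 0.0145, the highest without P0 replicate 2).

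Replicate numbers did not pair the libraries in the same direction at all stages. Deviations of same-numbered libraries correlated at over 0.1 in 5 of 10 pairs of stages, with a range of -0.64 to 0.43 over 4559 genes. E12.5 correlated negatively with E14, E15.5, E17 and P0 (-0.38, -0.34, -0.11 and -0.64). The other pairs lay at 0.21 to 0.43, except E14 with E17 (-0.04). The replicate block assumes the same direction at every stage and does not describe such a pattern. The replicate block gave 12 higher and 4 lower from E14 to E15.5, 9 and 3 from E17 to P0, and 38 and 5 from E12.5 to P0.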
